A study of Homo sapiens with 6 samples.

Results

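The KLF and SOX families are transcription factors that set the identity and growth of many cell types. The genes described here were the 17 KLF genes and 19 SOX genes of a list of symbols, 36 of the 41497 named entries in the tables, and each was taken from its entry on a primary chromosome. RNA was sequenced from HK-2 cells, an immortalised human line derived from the proximal tubule of the kidney, labelled WT. The 3 control libraries came from untreated cells and the 3 TGF-β1 libraries from cells given TGF-β1, a cytokine that drives fibrosis, and both groups were collected at 24 hours. The study used these libraries to look for transcription regulators that respond to TGF-β1 in tubular cells. The labels describe growth medium with serum, while the methods describe TGF-β treatment in general, in medium without serum and at a dose that differs between assays. Which of these applied to the sequenced cells, the serum of the control cells and the origin of the replicates (separate cultures or repeats of 1 culture) are not given in the sources used here. The p-values therefore measure the spread between these samples, which may be technical.

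KLF proteins bind GC-rich sequences called GC boxes and CACCC boxes through zinc fingers at their C-terminal end. The family is divided by the partners that the rest of the protein recruits. CtBP, a corepressor, binds KLF3, KLF8 and KLF12. Histone acetyltransferases are recruited by KLF1, KLF2, KLF4, KLF5, KLF6 and KLF7, which mostly activate genes. The Sin3A corepressor binds KLF9, KLF10, KLF11, KLF13, KLF14 and KLF16. SOX proteins bind and bend DNA in the minor groove through an HMG box, a domain that resembles the one in SRY, and they are sorted by the sequence of that box into subgroups named by letters. In the kidney, SOX9 is known as a gene that injured tubule cells switch on during repair, and KLF10 was first described as an early gene induced by TGF-β.

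The start of the HMG box is printed because it holds the longest coding stretch that SOX9, the member with the largest change, shares with another tested SOX gene, and because the same stretch can be lined up in all of them. Each line gives 30 bases of coding sequence of GENCODE v29 on GRCh38, read 5′ to 3′ on the gene's own strand, within 1 exon. Capitals mark bases that differ from SOX9.
SOX9 (chr17:72121709-72121738, plus strand): gcggcccatgaacgccttcatggtgtgggc
SOX18 (chr20:64049230-64049259, minus strand): gcggcccatgaacgccttcatggtgtgggc
SOX13 (chr1:204123704-204123733, plus strand): gAggcccatgaacgccttcatggtgtgggc
SOX4 (chr6:21594714-21594743, plus strand): gcgAcccatgaacgccttcatggtgtggTc
SOX12 (chr20:326047-326076, plus strand): gAggccGatgaacgcAttcatggtgtggTc
SOX11 (chr2:5692871-5692900, plus strand): gcggccGatgaacgcGttcatggtAtggTc
SOX15 (chr17:7589498-7589527, minus strand): gcggccGatgaacgcGttcatggtgtggAG
SOX18 matched SOX9 at all 30 bases, SOX13 differed from it at 1 base, SOX4 at 2 bases, and SOX11, SOX12 and SOX15 at 4 bases each. Over the whole coding sequence, the longest identical stretch shared by a pair of the SOX genes that passed the filter on low counts ran from 12 to 35 bases, with a median of 24 over 21 pairs. For the KLF genes that passed, the range was 9 to 26 bases with a median of 12 over 78 pairs. A read longer than these stretches holds bases that differ within each such pair, and members that did not pass the filter were not compared.

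RefSeq promoter windows on GRCh38.p14 were found for 25 of the 36 members, and none was at hand for KLF3, KLF10, SOX7, SOX8, SOX9, SOX10, SOX11, SOX14, SOX15, SOX17 and SOX18. The windows of KLF4 and KLF6 are printed because these had the largest rise and the largest fall among the called members with a single window. The bases lie before the start of the gene, run 5′ to 3′ on the gene's strand and stop where an annotated exon begins. Capitals mark GGGCGG, the GC box of SP and KLF factors, on either strand.
KLF4 (chr9:107489770-107490019, minus strand): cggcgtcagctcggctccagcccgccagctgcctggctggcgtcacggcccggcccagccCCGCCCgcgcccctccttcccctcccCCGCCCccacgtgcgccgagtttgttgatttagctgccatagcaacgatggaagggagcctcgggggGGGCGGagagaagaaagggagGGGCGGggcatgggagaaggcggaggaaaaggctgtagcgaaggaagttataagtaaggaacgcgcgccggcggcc
KLF6 (chr10:3785282-3785459, minus strand): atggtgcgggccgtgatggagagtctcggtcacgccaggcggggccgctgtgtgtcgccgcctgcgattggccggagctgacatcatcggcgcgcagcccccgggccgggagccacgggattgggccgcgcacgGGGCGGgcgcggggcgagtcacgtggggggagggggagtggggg
The 250 bases of KLF4 held 4 matches to GGGCGG and the 178 bases of KLF6 held 1. None of the other motifs searched on both strands, the SMAD elements CAGAC and GGCGCC, the CACCC box CCACCC and the SOX elements AACAAT and ACAAAG, was found in these stretches. Over full windows, which run from 250 bases before to 50 bases after a start, GGGCGG was in 15 of the 25 windows of the 14 tested members that had any, and in 45% of 35116 windows in the table. CAGAC was in 9 of the members' windows and in 45.3% of all windows, GGCGCC in 6 and in 19.2%, and CCACCC in 8 and in 34.3%. AACAAT was in 5 of the members' windows and in 10.1% of all windows, and ACAAAG in 6 and in 16.1%. Several windows belong to the same gene, so these shares describe the windows and carry no test.

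Library totals ran from 21.9 to 26.9 M counts, where M is megacounts. Of the 14860 entries that passed the filter on low counts, 44.3% were called, meaning an adjusted p under 0.05 in the edgeR quasi-likelihood test, 22.2% as higher and 22.1% as lower after TGF-β1. Entries called with a change of at least 2-fold made up 9.06%, and the 3 libraries of one group all lay on the same side of the other 3 for 55.6%. All 8 genes of a list of known TGF-β responses were called higher, led by COL1A1 (log2 fold change 3.30 ± 0.06, SE), JUNB (3.08 ± 0.11) and TGFBI (2.33 ± 0.06). Of 6 proximal tubule markers, GGT1, an enzyme with close copies in the genome, was the most abundant at a mean of 85.9 TPM in control (a share of transcripts, which is a level per gene length) and was called lower by 0.58 ± 0.09. AQP1 (log2 fold change 2.10 ± 0.39) and CUBN (0.82 ± 0.27) were called higher at low levels, of 1.91 TPM and 0.19 TPM after TGF-β1. The call of CUBN was lost with DESeq2, with total-count scaling, with all entries tested and without control replicate 2 or 3 or TGF-β1 replicate 1 or 3. No read was listed for LRP2, and ANPEP and SLC34A1 had 6 and 17 reads over all 6 libraries. All 4 epithelial markers were called, in both directions. The keratin genes KRT8 (723 TPM in control, 0.65 ± 0.07) and KRT18 (449 TPM, 0.58 ± 0.06) rose, and KRT19 (325 TPM, -1.34 ± 0.07) and the adhesion gene EPCAM (35.2 TPM, -1.25 ± 0.10) fell.

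The KLF family was the more widely expressed of the 2 families. In it 13 of 17 members (76.5%) passed the filter on low counts, against 7 of 19 SOX members (36.8%). Values in CPM, counts per megacount of the library, are scaled by TMM, which sets the bulk of genes equal between libraries. After TGF-β1, 8 of the 13 tested KLF members (61.5%) and 4 of the 7 tested SOX members (57.1%) were called, against 44.3% of all tested entries. The KLF calls were 5 higher and 3 lower, and the SOX calls were 3 higher and 1 lower. Only SOX9 was called with at least a 2-fold change, so that the KLF share past this limit was 0 of 13 against 9.06% of all entries. The median size of the change, regardless of sign, was 0.32 on the log2 scale over tested KLF members and 0.41 over tested SOX members, against 0.25 over all entries. Groups did not overlap for 9 tested KLF members and 4 tested SOX members, 13 of 20 in all, against 55.6% of all entries.

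**Figure D1:**
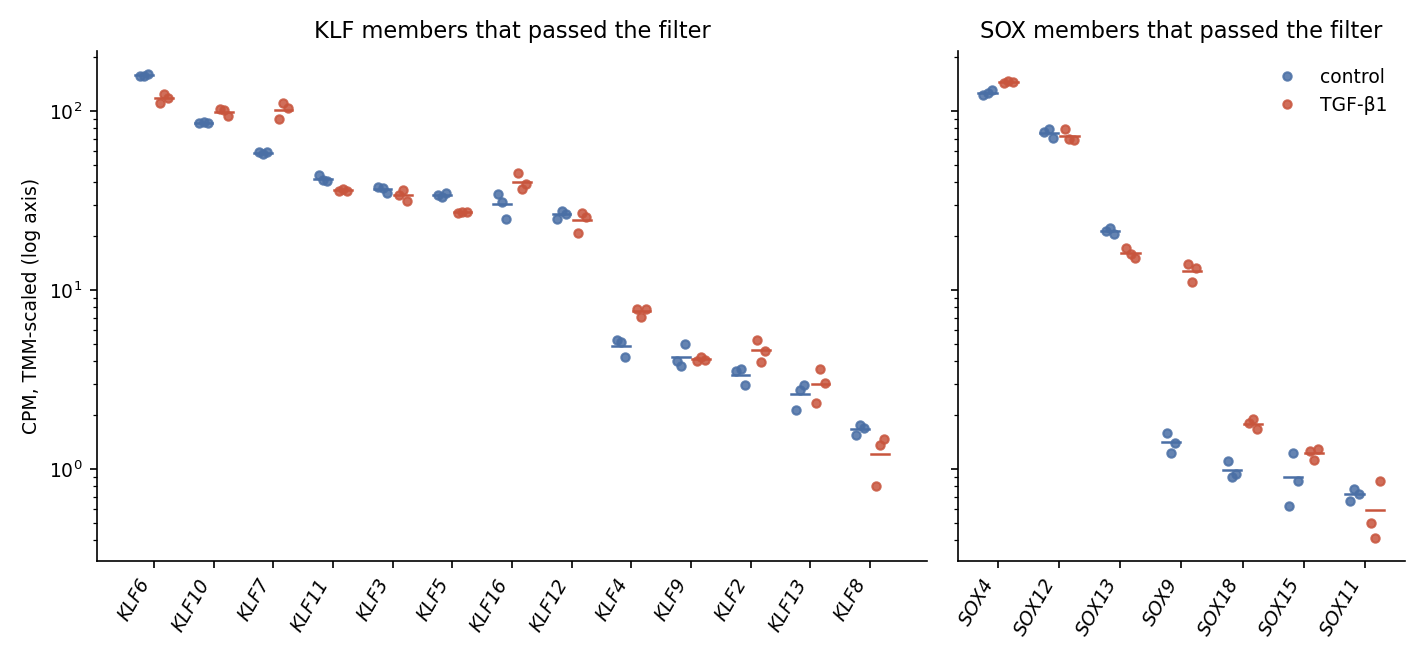
CPM of the 20 members that passed the filter, 1 point per library and a bar at the mean of each group of 3, on a log axis. The mean of SOX9 moved from 1.41 to 12.8 CPM, while the TGF-β1 mean of every other member stayed within a factor of 2 of its control mean.

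SOX9, a factor of cartilage and testis development in the SOXE subgroup, was the member with the largest change. It had 36, 30 and 33 reads in control libraries and 363, 269 and 277 reads in TGF-β1 libraries. In CPM the control libraries held 1.60, 1.23 and 1.41, and the treated libraries held 13.9, 11.1 and 13.2. Every TGF-β1 library lay far above every control library. The log2 fold change was 3.18 ± 0.14 (SE, n = 3 per group), a 9.04-fold rise with an adjusted p of 2.99e-08, and its 95% interval ran from 2.89 to 3.46. It was rank 72 by log2 fold change among all tested entries. SOX9 lies on chromosome 17 from 72121020 to 72126416 on the plus strand of GRCh38. No read was assigned to its antisense gene SOX9-AS1 in any library. The other SOXE genes stayed near 0 reads. SOX10, which specifies neural crest, glia and melanocytes, had 0, 2 and 3 reads in the control libraries against 1, 1 and 3 in the treated ones. Its ratio relative to total counts was 0.92, with a 95% interval from 0.212 to 4.0, and SOX8 had no read. In RNA from a whole culture, more cells with SOX9 and more SOX9 RNA per cell cannot be told apart.

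SOX18, a factor of blood and lymphatic vessel development in the SOXF subgroup, was the other low SOX member that was called higher. It held 0.899 to 1.11 CPM in control and 1.67 to 1.90 CPM after TGF-β1, a log2 fold change of 0.87 ± 0.19 (adjusted p = 0.00414). This rests on 22 to 25 reads per control library and 35 to 47 reads per TGF-β1 library. SOX18 lies within the span of TCEA2 on the opposite strand, with 0 shared exonic bases, and TCEA2 itself had a log2 fold change of 0.18 ± 0.12 and was not called. SOX7, its relative, had no read in control libraries but 0, 1 and 2 reads in treated ones, and SOX17, known from endoderm and arteries, had none in any library.

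SOX4, SOX12 and SOX11 form the SOXC subgroup, single-exon genes known from progenitor cells and many epithelial tumours. SOX4 was the most abundant SOX gene, with 122, 125 and 131 CPM in control and 144, 146 and 145 CPM after TGF-β1. The groups did not overlap, and the log2 fold change was 0.20 ± 0.05 (1.15-fold, adjusted p = 0.00873). With libraries scaled by total counts in place of TMM it was 0.09 and not called. SOX12, next in level, had 76.2, 79.7 and 70.3 CPM in control and 79.4, 69.7 and 68.9 CPM after TGF-β1. These groups overlapped. The log2 fold change of SOX12 was -0.05 ± 0.07, with a 95% interval from -0.19 to 0.09 and an adjusted p of 0.589. SOX11 had 10 to 19 reads per library and a log2 fold change of -0.31 ± 0.32 that was not called. Within libraries, SOX4 had 1.54, 1.51 and 1.79 times the TPM of SOX12 in control against 1.74, 2.01 and 2.01 times after TGF-β1, and these ratios overlap between the groups.

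SOX13, the SOXD gene that these cells express, fell. It had 21.2, 22.2 and 20.6 CPM in control and 17.2, 15.8 and 15.2 CPM after TGF-β1, with every treated library below every control library. The log2 fold change was -0.41 ± 0.07 (adjusted p = 0.000979). SOX5 and SOX6, the SOXD partners of SOX9 in cartilage, were at or near 0, with no read for SOX5 and with 2, 1 and 2 reads of SOX6 in control against 0 after TGF-β1. Within libraries, SOX9 passed from 0.078, 0.058 and 0.071 times the TPM of SOX13 in control to 0.846, 0.734 and 0.907 times after TGF-β1, a ratio that does not depend on how libraries are scaled.

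SOX15, the SOXG gene, had 14 to 30 reads per control library and 27 to 33 reads per TGF-β1 library. Its log2 fold change of 0.44 ± 0.27 was not called, and it shares 35 exonic bases with MPDU1 on the opposite strand. The subgroups that act in stem cells and neurons were at or near 0. SOX1, SOX3 and SOX14 had no read, SOX21 had 1 read in 1 TGF-β1 library, and SOX2, a pluripotency factor, had 1, 1 and 0 reads in the control libraries against 0, 2 and 0 in the treated ones. SOX30, a testis gene, had 2, 1 and 0 reads in treated libraries and none in control.

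Among the KLF genes that recruit acetyltransferases, all 5 tested members were called, 3 higher and 2 lower, where 44.3% of all tested entries were. The Sin3A-binding genes had 3 calls of 5 and the CtBP-binding genes 0 of 3, and the groups were not compared by a test. KLF6, a widely expressed activator studied as a tumour suppressor, was the most abundant of them. It had 156, 156 and 161 CPM in control and 111, 124 and 119 CPM after TGF-β1, with no overlap. Its log2 fold change was -0.42 ± 0.06 (1.34-fold lower, adjusted p = 0.00012). KLF5, which supports proliferation in epithelia, fell as well, from 33.0 to 34.9 CPM in control libraries to 27.0 to 27.4 CPM in TGF-β1 libraries, a log2 fold change of -0.32 ± 0.06 (adjusted p = 0.00124). KLF7, known from neuronal growth and fat cells, had the largest change of the KLF family. It rose from 57.8 to 59.1 CPM in control to 90.2 to 110 CPM after TGF-β1, a log2 fold change of 0.79 ± 0.07 (adjusted p = 7.86e-06). KLF4, a factor of epithelial barrier differentiation and of reprogramming, rose from 4.22 to 5.27 CPM in control to 7.07 to 7.87 CPM after TGF-β1 (0.64 ± 0.13, adjusted p = 0.0018). The rise of KLF2, a factor of quiescent endothelium, was smaller and less certain, at 0.45 ± 0.16 (adjusted p = 0.0348). It was not called by DESeq2, with scaling by total counts, or after leaving out any control library or TGF-β1 replicate 1 or 3, where it ranged from 0.33 to 0.51. KLF1, the erythroid member, had no read.

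The first of the Sin3A-binding genes by level, KLF10, had 85.6, 86.3 and 86.0 CPM in control and 102, 101 and 94.3 CPM after TGF-β1. The groups did not overlap, and the log2 fold change was 0.20 ± 0.05 (1.15-fold, adjusted p = 0.00929). With total-count scaling it was 0.10 and not called. KLF11, its closest relative, went the other way, from 40.8 to 43.8 CPM in control to 35.6 to 36.8 CPM after TGF-β1 (-0.21 ± 0.06, adjusted p = 0.0125), and without control replicate 1 it was -0.18 and no longer called. KLF16, a repressor that binds GC boxes, had 34.3, 31.1 and 24.9 CPM in control and 45.3, 36.7 and 38.9 CPM after TGF-β1. Control replicate 3 was the lowest, and the groups did not overlap. Its log2 fold change was 0.42 ± 0.12 (adjusted p = 0.0233), and the call was lost without control replicate 2 (0.45), TGF-β1 replicate 1 (0.32) or TGF-β1 replicate 3 (0.44), with total-count scaling (0.32) and with all entries tested (0.43). KLF9, which responds to glucocorticoid and thyroid hormone, and KLF13, a regulator in T cells, were not called, at -0.05 ± 0.15 and 0.19 ± 0.20. The tables list KLF13 also on alternate contigs, where it had up to 3 reads in a library against 48 to 87 on the primary entry. With primary chromosomes only its log2 fold change was 0.18 ± 0.19. That fit leaves out the alternate entries and cannot show whether reads that match both copies were lost in counting. KLF14, a single-exon gene known from fat tissue, had 0, 3 and 5 reads in the control libraries against 0, 2 and 4 in the treated ones. The libraries of both groups ranged alike, with a ratio of 0.69 relative to total counts and a 95% interval from 0.197 to 2.27.

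None of the 3 CtBP-binding KLF genes was called. KLF3, a repressor of fat and blood cell genes, had a log2 fold change of -0.11 ± 0.07, KLF12, a repressor of the AP-2 alpha gene, -0.12 ± 0.09, and KLF8, linked to epithelial-to-mesenchymal transition in tumour lines, -0.47 ± 0.24. KLF8 had 35 to 43 reads per control library and 21 to 33 per TGF-β1 library, which did not overlap, and its 95% interval ran from -0.94 to 0.01. KLF3 was called lower with total-count scaling (-0.22). The remaining KLF members lay under the filter. KLF15, known from podocytes and from glucose metabolism, had 2, 3 and 2 reads in control and 0 in every TGF-β1 library. The ratio relative to total counts had a 95% interval from 0 to 0.638, and the gene was called (adjusted p = 0.0396) when all entries with a count were tested. KLF17, a gene of the early embryo, had 2, 3 and 0 reads in treated libraries and none in control. For the 7 members without a read, a count of 0 allows up to 3 reads, or 0.111 to 0.137 CPM by library.

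**Figure D2:**
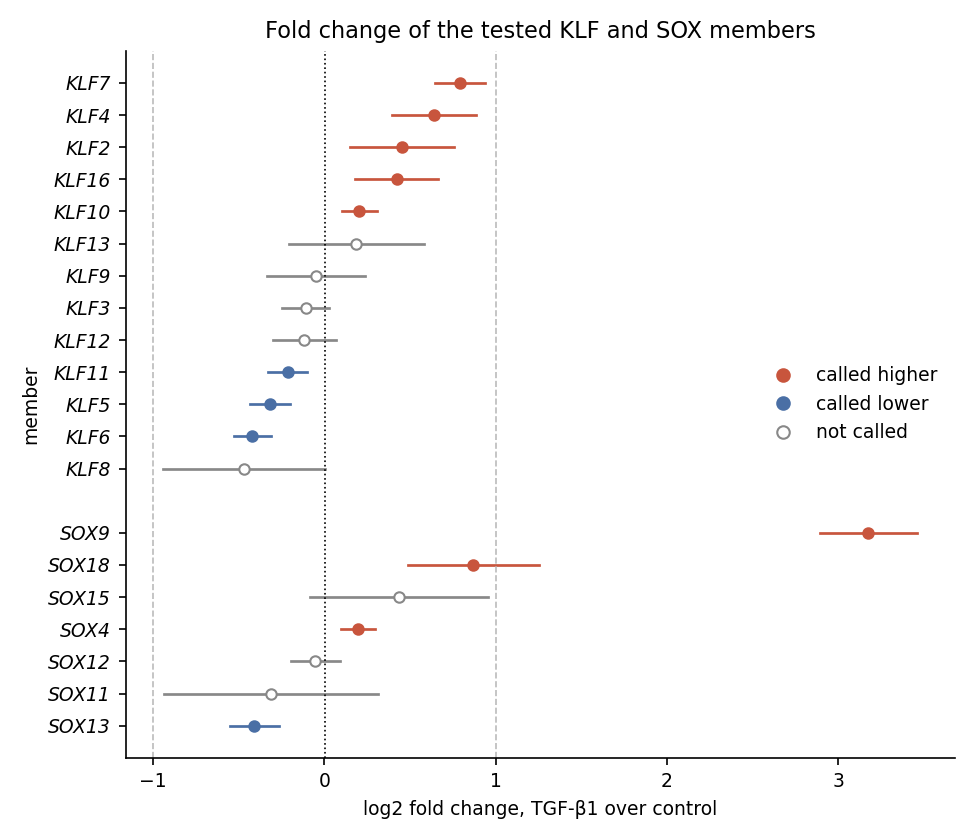
Log2 fold change of the 13 tested KLF and 7 tested SOX members with 95% intervals. Filled points were called, open points were not, the dotted line is the median of all tested entries and the dashed lines mark a 2-fold change. SOX9 at 3.18 stands alone beyond the upper dashed line, and the KLF points spread from -0.47 to 0.79. With total-count scaling the calls of KLF2, KLF10, KLF16 and SOX4 are lost and KLF3 is called lower.

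As families the members did not move one way. The median log2 fold change was -0.05 over tested KLF members and 0.20 over tested SOX members, against 0.01 over all 14860 entries. Scaling by total counts shifted the median of all entries by -0.11 and gave -0.16 for KLF and 0.09 for SOX. Such rescaling moves every entry by about the same amount. The nearly equal distance of each family from all entries follows from this. On that scale all entries divided into 2134 higher and 4590 lower calls in place of 3294 and 3288. The KLF calls then became 2 higher and 4 lower in place of 5 and 3, and the SOX calls 2 higher and 1 lower in place of 3 and 1. The sign of the KLF median was also not stable, at 0.05 among entries with a mean of at least 50 counts and 0.08 without control replicate 3.

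**Figure D3:**
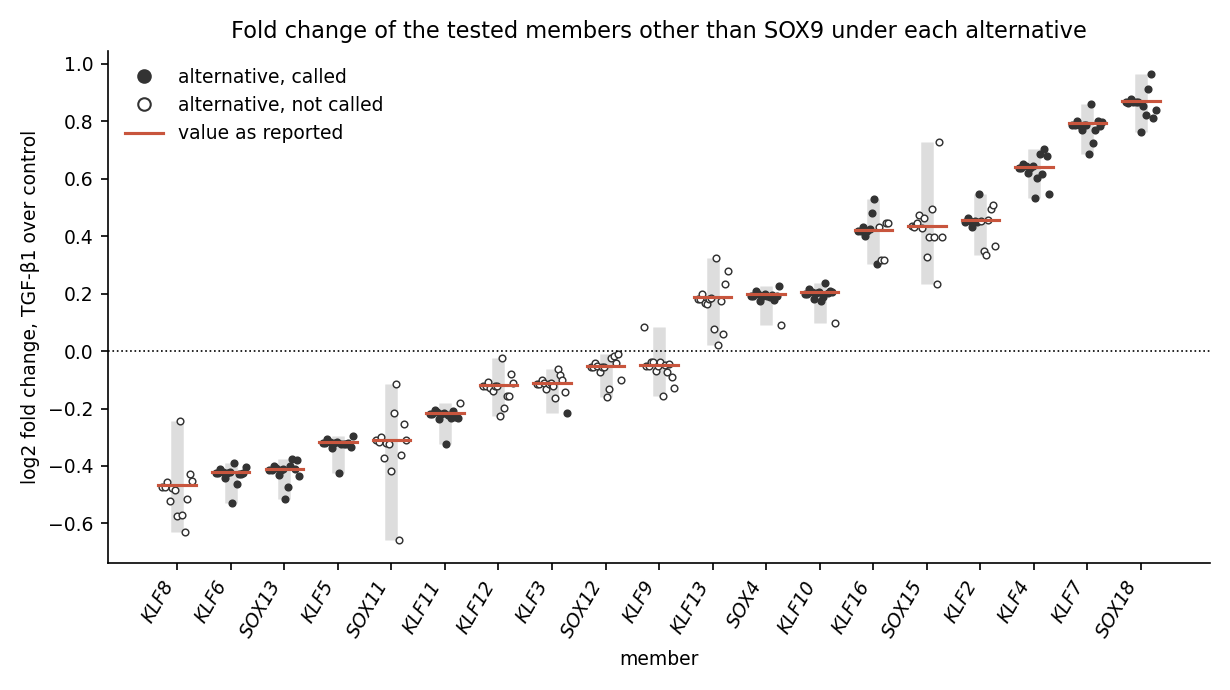
Log2 fold change of the 19 tested members other than SOX9 under up to 14 alternative settings, with filled points for settings in which the member was called. The test against the 2-fold limit is not among these settings. KLF7, KLF4, SOX18, SOX13, KLF5 and KLF6 are filled in every alternative shown that tested them, whereas KLF2 and KLF16 are filled in some. KLF9 crosses 0 in 1 alternative, without control replicate 3, and was called in none.

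Per gene length, the order of the members differs from the order by reads. In control cells the KLF members followed the order KLF6 (114 ± 4.07 TPM, SD, n = 3), KLF10 (89.7 ± 1.83), KLF16 (34.5 ± 4.91), KLF11 (32.2 ± 0.84), KLF5 (31.9 ± 1.37), KLF3 (20.2 ± 0.52) and KLF7 (11.3 ± 0.24). KLF16, KLF11 and KLF5 overlapped with their neighbours in this order, while the rest were separate. The length used for KLF7 is 17293 bases over 10 exon blocks, and its 58.6 CPM in control correspond to this low TPM. A length that pools the exon blocks of an entry can exceed that of any 1 transcript. Levels in TPM set between members, and the sums and shares built on them, are therefore approximate. KLF12, KLF4, KLF2, KLF9, KLF13 and KLF8 followed, from 7.48 TPM down to 0.411 TPM, each separate from the next. In the SOX family SOX4 (86.4 ± 4.72 TPM), SOX12 (53.7 ± 2.84) and SOX13 (17.3 ± 0.58) led, and SOX15, SOX18, SOX9 and SOX11 lay between 2.27 and 0.267 TPM, with SOX15 and SOX18 overlapping.

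After TGF-β1 the order by TPM changed at named places, and these changes of order rest on the lengths used. KLF10 (95.2 ± 3.80 TPM) stood above KLF6 (78.9 ± 6.42 TPM) in every TGF-β1 library, and below it in every control library. The ratio of KLF10 to KLF6 was 0.790, 0.794 and 0.769 in control libraries against 1.32, 1.17 and 1.14 in treated libraries, a change that no scaling of libraries can alter. KLF7 (18.0 ± 2.30 TPM) reached the level of KLF3 (17.3 ± 1.39 TPM), with overlapping libraries, and KLF4 (7.66 ± 0.35 TPM) passed KLF12 (6.37 ± 1.0 TPM). The ratio of KLF7 to KLF6 rose from 0.097 to 0.101 in control libraries to 0.215 to 0.236 in TGF-β1 libraries. In the SOX family SOX9 (9.94 ± 0.93 TPM) moved from the place before last to the place after SOX13 (12.0 ± 0.49 TPM), from which it was still separate. By CPM, which is not divided by length, KLF6 stayed above KLF10 in every TGF-β1 library (111, 124 and 119 CPM against 102, 101 and 94.3 CPM). KLF7 already lay above KLF3 in every control library, and KLF4 lay below KLF12 in every TGF-β1 library. The mean CPM of SOX9 in control (1.41) was already next after that of SOX13 (21.3).

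**Figure D4:**
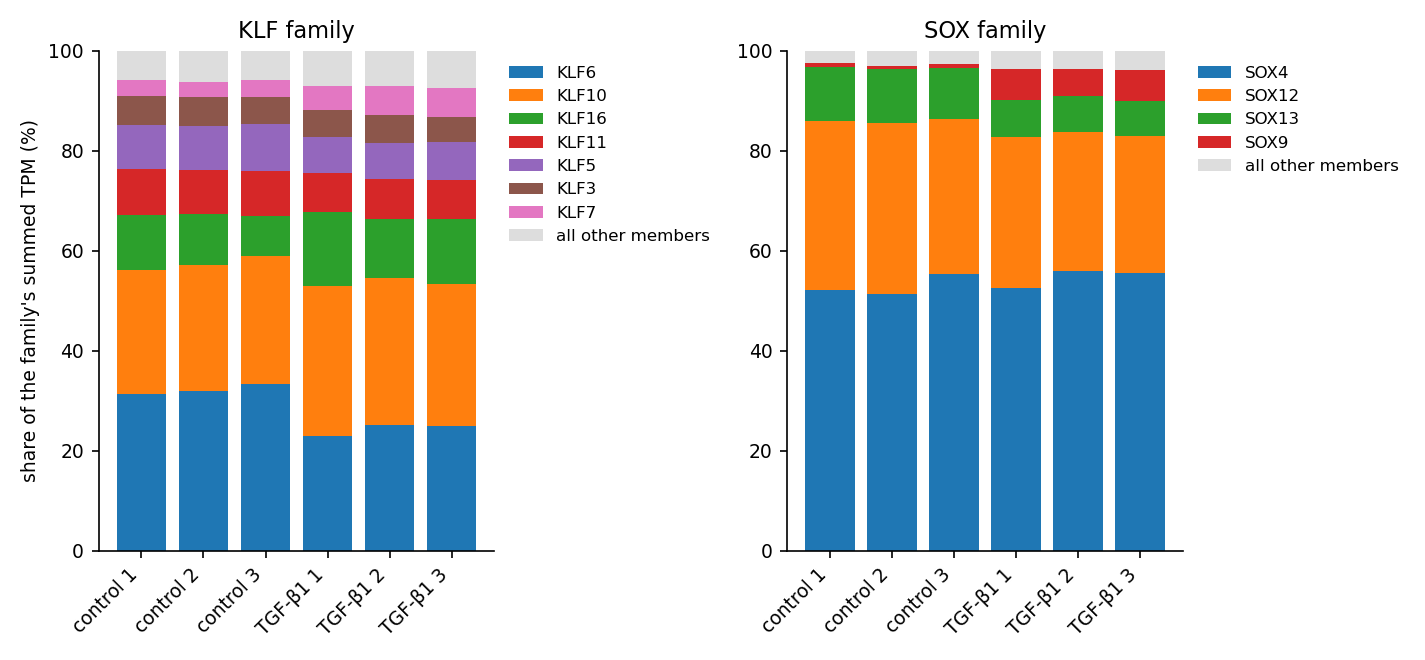
Share of each family's summed TPM taken by its leading members, 1 stacked bar per library. KLF6 narrows from 32.2% to 24.3% while KLF10, KLF16 and KLF7 widen, and in the SOX family the band of SOX9 widens from 0.73% to 5.95%.

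The summed level of the KLF family was 354, 355 and 357 TPM in control and 315, 337 and 321 TPM after TGF-β1, so that all treated libraries lay below all control libraries. This order depends on the scale, since the same sum in TMM-scaled CPM was 485 to 492 in control and 487 to 520 after TGF-β1, which overlap. Summed over the SOX family it was 158, 166 and 165 TPM in control and 167, 168 and 166 TPM after TGF-β1, which overlap, and in CPM it was 224 to 231 in control and 246 to 258 after TGF-β1, which do not. Within the KLF sum the share of KLF6 went from 32.2% ± 0.99 (SD, n = 3) to 24.3% ± 1.25, that of KLF10 from 25.2% ± 0.41 to 29.4% ± 0.82, that of KLF16 from 9.70% ± 1.42 to 13.1% ± 1.48 and that of KLF7 from 3.17% ± 0.05 to 5.55% ± 0.55. Within the SOX sum SOX4 held 53.0% ± 2.15 in control and 54.6% ± 1.89 after TGF-β1, which overlap. SOX12 went from 32.9% ± 1.78 to 28.5% ± 1.46, SOX13 from 10.6% ± 0.27 to 7.19% ± 0.27 and SOX9 from 0.73% ± 0.11 to 5.95% ± 0.58.

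Genes that work with the KLF family were counted from lists. The SP factors are the closest relatives of the KLF proteins and bind the same GC boxes. Of 9 SP genes 7 were tested. SP4 was called higher (0.47 ± 0.09) and SP9 lower (-0.95 ± 0.24, not called by DESeq2), and SP1 and SP3, the most abundant at 77.9 and 37.3 TPM in control, were not called at -0.20 ± 0.08 and -0.04 ± 0.06. Of 12 cofactors and regulators of KLF proteins, 4 were called higher and 2 lower, a share of calls close to the 44.3% of all entries. The deacetylase genes HDAC1 (0.49 ± 0.05) and HDAC2 (0.24 ± 0.05) rose, as did WWP1, a ubiquitin ligase of KLF2 and KLF5, by 0.21 ± 0.07, a call that total-count scaling and leaving out control replicate 1 or 2 or TGF-β1 replicate 2 or 3 removed. CTBP2, the fourth, rose by 0.18 ± 0.05 and lost its call with total-count scaling and without control replicate 2 or 3 or TGF-β1 replicate 2. The acetyltransferase genes KAT2B (-0.49 ± 0.11) and CREBBP (-0.21 ± 0.05) fell, while EP300, also an acetyltransferase gene, was not called at -0.13 ± 0.07. The corepressor gene SIN3A was not called at 0.04 ± 0.06. The median of the list was 0.11.

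Of 10 genes reported as KLF targets in other cells, 7 were tested, 5 were called higher and 1 lower, where 22.2% of all entries were higher and 22.1% lower. TAGLN, a smooth muscle actin-binding protein (2.66 ± 0.07), TGFB1, the gene of TGF-β1 itself (1.79 ± 0.09), and PDGFA (1.08 ± 0.09) rose the most. CCND1 rose by 0.35 ± 0.07, and CDKN1A (0.26 ± 0.09) lost its call with DESeq2, with total-count scaling and without any 1 control library or TGF-β1 replicate 1. THBD, the thrombomodulin gene that KLF2 and KLF4 activate in endothelium, fell (-0.65 ± 0.16), while KLF2 and KLF4 were called higher. NOS3, HBB and SLC2A4 had 3, 2 and 4 reads in all. The median of the tested genes was 0.51. The list was chosen with earlier results of these data known, so these shares describe the listed genes only. Whether any KLF member has a part in these changes was not tested.

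The partners of SOX proteins in β-catenin signalling were called higher in 4 of 5 cases, where 22.2% of all entries were, with the largest changes for TCF7 (0.99 ± 0.09), LEF1 (0.70 ± 0.20, not called by DESeq2 or without control replicate 2 or 3) and CTNNB1, the β-catenin gene (0.39 ± 0.06). TCF7L2 (0.21 ± 0.07) lost its call with DESeq2, with total-count scaling and without control replicate 1 or 3 or TGF-β1 replicate 2. DESeq2 thus called 2 of the 5, and this list too was chosen with earlier results known. Cartilage genes that SOX9, SOX5 and SOX6 activate in chondrocytes were mostly under the filter. Of 12 such genes 3 were tested, of which MATN3 rose (0.64 ± 0.08), and COL9A2 (-1.32 ± 0.11) and COL11A1 (-1.27 ± 0.32, not called by DESeq2) fell. COL2A1, the main collagen of cartilage, had 8 reads over all 6 libraries and ACAN, the main proteoglycan, had 3.

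Several members are known as markers of other lineages, and the marker genes of these lineages were counted beside them. Of 5 endothelial markers, beside KLF2, KLF4 and SOX18, only CDH5 was tested. It had 1.28, 0.654 and 0.724 CPM in control and no read after TGF-β1, and was called lower. The summed endothelial level was 0.673 to 1.21 TPM in control and 0 to 0.062 TPM after TGF-β1, and PECAM1 and VWF also had no read after TGF-β1. Of 4 glial and melanocyte markers, beside SOX10, the tested PMEL and MLANA were not called, and the sum was 2.54 to 3.23 TPM in control and 1.66 to 2.05 TPM after TGF-β1. Of 3 immune markers, beside KLF13, only CD68 was tested and called lower (-0.44 ± 0.11, not called without TGF-β1 replicate 2), and CD3E had no read. The immune sum was 183 to 199 TPM in control and 111 to 147 TPM after TGF-β1. It was almost all CD68, at a mean of 189 TPM in control and 127 TPM after TGF-β1, and does not describe the other markers. Of 4 fibroblast markers 2 were tested, of which PDGFRB was called higher (3.38 ± 0.18, to 2.41 TPM) and LUM lower (-0.28 ± 0.07). The fibroblast sum was 71.6 to 86.3 TPM in control and 58.8 to 62.8 TPM after TGF-β1. It was almost all LUM, at a mean of 77.0 TPM in control and 58.5 TPM after TGF-β1. The part of these marker genes' changes in the values of SOX9 and the other members was not tested.

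Antisense and other relatives of the members had few reads. Of 11 such entries, among them KLF18 and copies of KLF13 and SOX7 on alternate contigs, none passed the filter, 5 had no read and the highest had 3 reads in a library. KLF3 shares 286 exonic bases with KLF3-AS1 and KLF9 shares 739 with KLF9-DT on the opposite strand, but these had at most 3 reads in a library. Reads that match both a primary entry and its copy may be missing from the counts of KLF13 and SOX7. Whether the counting used strand is not given in the sources used here.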

How the data were processed

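Poly(A) RNA was sequenced on the MGI platform and reads with adapters or of low quality were filtered out by the authors. The submitters' processing notes name CASAVA, featureCounts 2.0.1, DESeq2 1.16.1 and hg38, and the aligner is not given in the sources used here. The deposited tables hold raw counts per entry, with names as in RefSeq, and TPM and FPKM values that the authors computed from counts and gene lengths. FPKM was not used. Each file had 7 records broken over lines, which were rejoined. Of 42095 entries, the 598 without a name (0.396% to 0.464% of counts) were left out.

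Counts of all named entries were kept with filterByExpr (minimum count 10), scaled by TMM and compared with the two-sided quasi-likelihood F test of edgeR 4.0.16, with Benjamini-Hochberg adjustment over 14860 entries. The SE is the size of the log2 fold change divided by the square root of F. CPM uses TMM-scaled totals, and TPM was read as deposited. Ratios of reads carry 95% exact binomial intervals, which, like the floor of 3 reads, cover counting error only. The test was checked on simulated data with planted changes of at least 2-fold, in far fewer entries than were called here. It recovered most of these changes. Recovery of smaller changes, such as those of all called members other than SOX9, was not checked. Its false calls ran above the nominal share, which bears on calls near the threshold.

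The members and lists were chosen with earlier results of these data known. Full values are given for members called at least 2-fold, the 3 of each family with the highest mean TPM and members under the filter with at least 10 reads in all. From each context list up to 3 called genes per direction are named. Other named genes were chosen after their values were seen. Some marker genes are not reported here. Alternatives were DESeq2 1.42.0, limma-voom (limma 3.58.1), RLE size factors, total counts only, all entries with a count, a mean of at least 50 counts, primary chromosomes only, a replicate block, a test against the 2-fold limit (glmTreat) and leaving out each library. R 4.3.3, Python 3.11.15, pandas 2.3.3 and scipy 1.17.1 were used.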

Additional observations from a re-analysis of the deposited data

How the results depend on the processing

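For the tested members, 259 of 276 alternative log2 fold changes had the same sign and the same call as the value reported, 15 lost the call, 1 gained it and 1 changed sign. The test against the 2-fold limit is not in this count. The change of sign was KLF9, not called in any fit, at 0.083 without control replicate 3 in a leave-one-out range of -0.13 to 0.083, and the cause was not tested. Tested against the 2-fold limit itself with glmTreat, 0 KLF members and 1 SOX member, SOX9, were called, which follows from the stricter limit. The median log2 fold change of the tested KLF members was -0.16 with total counts only and 0.046 among entries with a mean of at least 50 counts. Leaving out single libraries put it between -0.083 and 0.083. That of the SOX members was 0.089 and 0.051 under the first 2 of these settings. The higher count limit leaves out low members, SOX18 among them. With CPM in place of TPM, SOX4 took 55.6% of the SOX sum in control and 57.9% after TGF-β1. Between 6 and 8 KLF members were called when 1 library was left out, and 4 SOX members in each such fit.

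Replicate numbers are shared between the groups, but nothing in the labels makes them pairs. The deviations of same-numbered libraries from their group means correlated at 0.11, -0.01 and 0.08, and control replicates 2 and 3 did not correlate best with their own number. With a replicate block, 8 KLF and 4 SOX members were called, as without it, and 6790 of all entries in place of 6582.

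Depth limits the 16 members under the filter, of which 7 had no read. SOX9 rests on 30 to 36 reads per control library, and KLF8, at 21 to 43 reads per library, had a 95% interval from -0.94 to 0.01. With 3 libraries a group, and no label on culture, batch or date, treatment and any such difference cannot be told apart.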
